A study of Rattus norvegicus and Mus musculus with 18 samples.

Results

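Rat wound epidermis was compared with rat wound dermis in 7 of the 18 libraries of this series, 4 from wound epidermis and 3 from wound dermis, taken by their labels. All 7 came from skin wounds of adult rats, collected on day 1 after the scab came off. The labels name no strain, genotype or treatment other than the wound, and do not say whether each library is another animal, so the p-values reflect spread among libraries, which may be technical. Another 5 rat libraries, from inter-follicular epidermis of normal skin, the surface between hair follicles lifted off by suction, were left out of the main fit and served to choose epidermal genes from tissue outside the comparison. The remaining 6 libraries were mouse. Of 32457 rat genes, 14604 had 1 TPM or more in at least 3 of the 7 libraries and were tested. TPM is a gene's estimated fraction of all transcripts in its library, scaled so that every library has the same total.

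The epidermis is a layered sheet of keratinocytes, which divide at its base and harden into a barrier at its surface, and it is renewed over a wound by keratinocytes that crawl in from the edge. The dermis below is built by fibroblasts, which secrete collagen and other matrix, and holds blood vessels, nerves and immune cells. In mice, large wounds can form new hair follicles soon after the scab is lost, through signals passed between the new epidermis and the dermis, and the title of the series is about the lack of this in rats. The deposited rat genes carry Ensembl identifiers only, and 0 of 32457 could be paired with a symbol, so genes are described below in groups by their levels. For the same reason the labelled tissues could not be checked against known marker genes.

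The 7 libraries differed first in how many genes they held. At 1 TPM or more, wound epidermis replicates 1 to 4 held 12466, 12694, 13177 and 13007 genes, and wound dermis replicates 1 to 3 held 14328, 14417 and 14485. All dermis libraries lay above all epidermis libraries, with means of 12836 ± 318 in epidermis and 14410 ± 78.7 in dermis (SD, n = 4 and 3; two-sided exact permutation test, p = 0.0571, or 0.0762 adjusted over 4 such measures). This design cannot give a p below 0.0571. Read depth is not known and the labels tie neither RNA input nor read length to a library, so their part in these counts cannot be told apart from that of the layer. The 50 most abundant genes took up 24.8% ± 1.5 of the transcripts in epidermis and 28.8% ± 2.1 in dermis (SD, n = 4 and 3; exact permutation p = 0.0571). Genes at 100 TPM or more numbered 1511 to 1622 in epidermis and 1528 to 1601 in dermis, and here the groups overlapped (exact permutation p = 0.857).

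Wound dermis replicates 1 and 2 held transcripts of epidermal genes that were chosen as scarce in replicate 3. The low level in replicate 3 is set by that choice. In 216 genes averaging 100 TPM or more in inter-follicular epidermis and under 5 TPM in wound dermis replicate 3, a choice that used neither of the other dermis libraries, replicate 1 stood at a median of 15.5% of the wound epidermis mean and replicate 2 at 20.7%. The interquartile range over genes ran from 11.8% to 18.7% in replicate 1 and from 17.9% to 24.0% in replicate 2. Together these 216 genes made up 6.78% to 7.95% of the transcripts in the 4 wound epidermis libraries, 1.15% in wound dermis replicate 1 and 1.58% in replicate 2. They were at 0 in replicate 1 for 4 genes and in replicate 2 for 6 genes. In bulk tissue, fewer cells of a type and less RNA per cell cannot be told apart.

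Without any use of dermis replicate 3 in the choice, the same order held. Over all 1251 genes with at least 100 TPM in inter-follicular epidermis, the 5th percentile of the ratio to wound epidermis was 12.4% in wound dermis replicate 1, 17.9% in replicate 2 and 0.13% in replicate 3. The ratio was under 1% for 4, 6 and 198 of these genes. The median ratios, 68.8%, 68.8% and 59.6%, were closer together. Replicate 3 thus stood apart in the genes with the lowest ratios and less so in the middle of the list. The 1251 genes were chosen on inter-follicular epidermis alone and need not be particular to epidermis. They made up 43.7% of the transcripts in wound dermis replicate 3.

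The epidermis libraries held few transcripts of dermal genes that were chosen as scarce in inter-follicular epidermis. That choice leaves out dermal genes which unwounded epidermis also holds, and so favours low ratios. In 133 genes with at least 100 TPM in wound dermis replicate 3 and a mean under 1 TPM in inter-follicular epidermis, wound epidermis replicates 1 to 4 stood at medians of 0.56%, 0.31%, 2.15% and 1.48% of the dermis value. In wound dermis replicates 1 and 2 the same genes stood at 87.3% and 78.0%. They made up 9.39%, 8.87% and 7.93% of the transcripts in wound dermis replicates 3, 1 and 2, against 0.067% to 0.235% in the epidermis libraries. Epidermis replicates 3 and 4, the highest in these genes, were also the epidermis libraries with the most genes at 1 TPM, and the part of the one in the other was not tested.

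**Figure D1:**
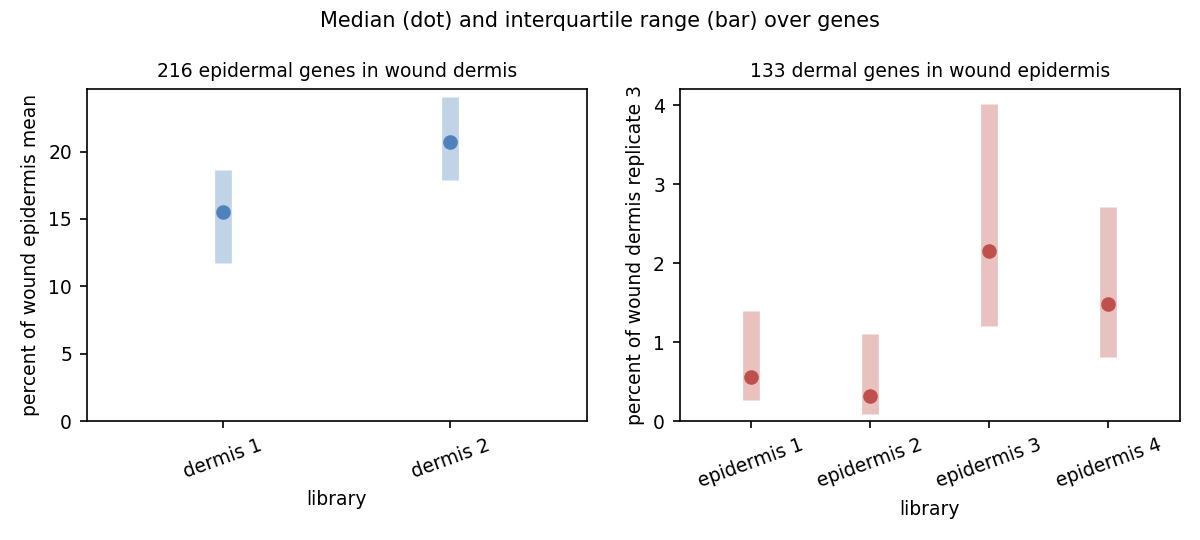
Left, 216 genes chosen as abundant in inter-follicular epidermis and scarce in wound dermis replicate 3, shown for wound dermis replicates 1 and 2 as a percent of their wound epidermis mean. Right, 133 genes chosen as abundant in wound dermis replicate 3 and scarce in inter-follicular epidermis, as a percent of that library in the 4 wound epidermis libraries. Dots are medians over genes and bars span the interquartile range. The axes differ in scale, with dermis medians of 15.5% and 20.7% and epidermis medians of 0.31% to 2.15%.

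Across all genes tested, the layers differed widely. Of 14604 genes, 3068 were higher in wound epidermis (21.0% of those tested) and 4674 lower (32.0%), together 7742 (53.0%; limma on log2(TPM + 1), adjusted p under 0.05). The lower count includes 1137 of 1142 tested genes that were under 1 TPM in all epidermis libraries, which had to reach 1 TPM in all 3 dermis libraries to be tested, and the higher count 197 of 243 that were under 1 TPM in all dermis libraries. Without both kinds, 2871 genes were higher and 3537 lower, of 13219. A log2 fold change of 1 or more in size was also seen in 5033 (34.5%). In 8400 genes (57.5%) the 4 epidermis and 3 dermis libraries did not overlap. The median log2 fold change, epidermis minus dermis, was 1.20 over the higher genes, -1.41 over the lower genes and -0.17 over all genes tested. The fit left the replicate numbers out. With them as a block 7055 genes were called, 2568 higher and 4487 lower.

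The balance between directions depended on the scaling. Higher genes made up 39.6% of those called on TPM as deposited, and 53.7% after quantile normalization, when the median of all genes moved from -0.17 to 0.09. After median-of-ratios scaling it stood at -0.02, with 47.9% higher. TPM is a share of each library, so a statement that more genes fell than rose holds only relative to the other transcripts.

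Abundant genes were more often higher in epidermis than scarce ones. Among the 205 genes whose mean reached 1000 TPM in either layer, 96 were higher (46.8%) and 69 lower (33.7%). Among the 5851 genes whose means stayed under 10 TPM in both layers, 738 were higher (12.6%) and 1822 lower (31.1%). The share of higher genes grew with level under the other scalings too, from 15.9% to 50.2% with median-of-ratios scaling and from 27.8% to 40.0% after quantile normalization. The share of lower genes did not keep one pattern. After quantile normalization it rose too, from 18.8% to 34.1%, so abundant genes were called more often in both directions. In that setting 1624 genes were higher and 1098 lower under 10 TPM, against 82 and 70 at 1000 TPM or more. Among called genes, the lean to epidermis thus did not grow with level there. Tested genes under 1 TPM in all epidermis libraries had dermis medians of 3.4 to 4.95 TPM, and 1137 of 1142 were called lower. They add to the lower genes among the scarce ones.

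Genes of the epidermal direction were mostly also present in unwounded epidermis. Of the 3068 higher genes, 2891 (94.2%) averaged 1 TPM or more over the 5 inter-follicular libraries, against 2881 of the 4674 lower genes (61.6%) and 11711 of all 14604 genes tested (80.2%). Their median level there was 29.3 TPM for the higher genes and 2.11 TPM for the lower genes, against 7.30 TPM for all genes tested. The filter adds to this gap, since 1137 of the lower genes were under 1 TPM in all 4 epidermis libraries and could be tested only through dermis. With genes under 1 TPM in every library of one layer left out, the shares at 1 TPM or more were 96.2% of 2871 higher genes, 78.1% of 3537 lower genes and 86.5% of 13219 genes tested. The inter-follicular libraries took no part in the calls. Level differed as well, with median wound epidermis levels of 31.2 TPM for higher genes, 3.15 TPM for lower genes and 9.33 TPM for all tested. Among genes with at least 1 TPM in all 7 libraries, 9937 of 10512 averaged 1 TPM or more in inter-follicular epidermis. The share of the higher genes did not exceed that, and the part of level in these shares was not tested.

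The ranges of the changes were lopsided. No higher gene reached a log2 fold change of 6, while 69 lower genes reached -6 or below. At 4 or more the numbers were 102 and 349. Set apart as a difference with no replicate on the dermis side and no test, wound dermis replicate 3 had 206 genes at least 6 below wound epidermis on the log2 scale and 86 at least 6 above it. At 4 or more the numbers were nearly even, at 469 and 447. At 2 or more they were 1205 and 1835, and at 1 or more 2442 and 3878, so with smaller differences counted more genes were lower in epidermis than higher. Over those 206 genes the median difference was 7.16 from wound dermis replicate 3, 2.56 from replicate 1 and 2.19 from replicate 2. Over the 86 genes it was -6.70, -6.44 and -6.32. Both sets were chosen on replicate 3. The differences of the 206 genes levelled off in dermis replicates 1 and 2, and those of the 86 genes lay closer together across the 3 dermis libraries. Replicate 3 was also further out over all called genes. The medians from replicates 1, 2 and 3 were 1.09, 1.061 and 1.463 over the higher genes. Over the lower genes they were -1.339, -1.305 and -1.589.

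The spread between dermis libraries followed. Over the same 206 genes the SD on the log2 scale was a median of 2.82 between the 3 dermis libraries and 0.31 between the 4 epidermis libraries, against 0.24 and 0.27 over all genes tested. The standard error of the fold change was a median of 1.16, and 191 of the 206 genes passed the threshold. Over the 86 genes the median SD was 0.22 in dermis and 0.78 in epidermis, the standard error was 0.43, and 85 passed. Because wound dermis replicate 3 is part of both the difference and the test, these counts describe the genes and test nothing about that library.

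**Figure D2:**
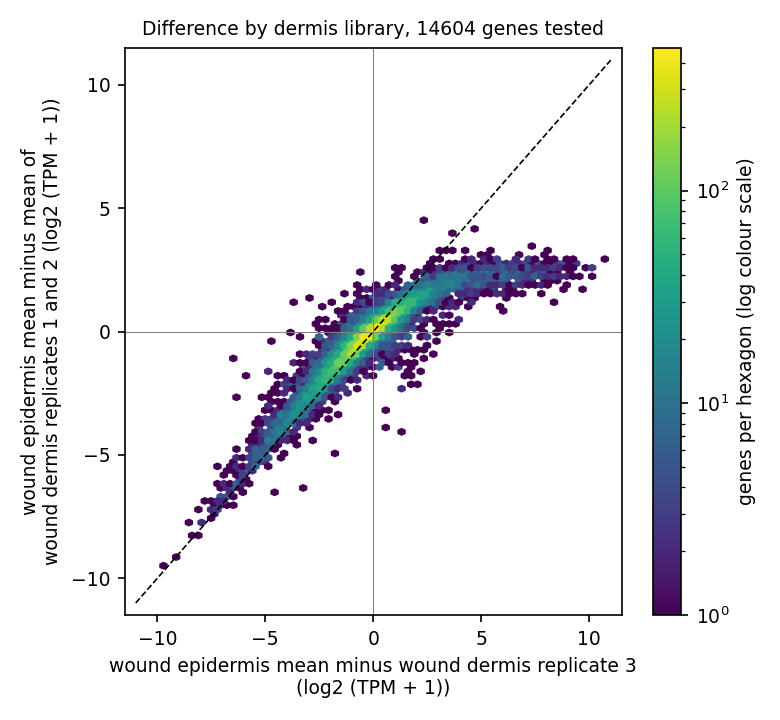
Each of the 14604 genes tested, by the mean of the 4 wound epidermis libraries minus wound dermis replicate 3 (x axis) and minus the mean of wound dermis replicates 1 and 2 (y axis), both in log2(TPM + 1). Colour gives genes per hexagon on a log scale and the dashed line marks equal differences. At the far left the genes lie near the line, with medians of -6.44 and -6.32 from replicates 1 and 2 where that from replicate 3 is -6.70. On the right they level off, with medians of 2.56 and 2.19 from replicates 1 and 2 where the median difference from replicate 3 is 7.16.

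Few genes were on in wound epidermis and off in all dermis libraries. Exactly 1 gene had at least 10 TPM in all 4 wound epidermis libraries and under 1 TPM in all 3 wound dermis libraries. With wound dermis replicate 3 as the only dermis library asked to be under 1 TPM there were 313 such genes, and 309 of them reached 1 TPM in replicate 1 and 312 in replicate 2. Their median level was 43.2 to 51.5 TPM in the epidermis libraries, 9.13 TPM in dermis replicate 1, 10.7 TPM in replicate 2 and 0.27 TPM in replicate 3. Of the 313, 300 had at least 1 TPM in inter-follicular epidermis, against 11711 of all 14604 genes tested (80.2%). Among genes with at least 10 TPM in all 7 libraries it was 5023 of 5066, a share that the 313 did not exceed. Those genes were near the 313 in wound epidermis, with medians of 41.2 to 48.3 TPM. They differed in dermis, with medians of 46.6 to 47.5 TPM.

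In the other direction, 168 genes had at least 10 TPM in all 3 dermis libraries and under 1 TPM in all 4 epidermis libraries. Their median level was 19.2, 19.3 and 25.1 TPM in wound dermis replicates 1, 2 and 3, and 0.07 to 0.45 TPM in the epidermis libraries. Inter-follicular epidermis held 10 of the 168 at 1 TPM or more, against 121 of the 1142 tested genes under 1 TPM in all 4 epidermis libraries. With replicate 3 as the only dermis library asked to reach 10 TPM there were 334 such genes, of which 300 also reached 1 TPM in replicate 1 and 296 in replicate 2. The filter acts unevenly here, because a gene under 1 TPM in all epidermis libraries is tested only if all 3 dermis libraries reach 1 TPM. This leaves 293 of the 334 genes in the test. All of them were called lower, but the choice and the filter all but fix that call, so it tests nothing.

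The genes that led each direction under the naming rule showed both patterns. That rule ranks by the fold change over all 7 libraries, so among higher genes it favours those near 0 in wound dermis replicate 3. The pattern of the 2 higher genes therefore follows in part from the choice. ENSRNOG00000009602 stood at 6015, 5369, 3814 and 6300 TPM in wound epidermis replicates 1 to 4, and at 520, 933 and 1.82 TPM in wound dermis replicates 1 to 3. All epidermis libraries lay above all dermis libraries, and on the log2 scale the spread was far wider in dermis (SD 4.61) than in epidermis (SD 0.33). The means were 5374 ± 1111 and 485 ± 466 TPM (SD, n = 4 and 3), and the log2 fold change was 5.57 ± 1.83 (SE; adjusted p = 0.035 by limma). From wound dermis replicate 3 alone the difference was 10.87, against 3.34 from replicate 1 and 2.50 from replicate 2. In inter-follicular epidermis the gene ranged from 14311 to 22798 TPM. The call was lost with the replicate number as a block (5.49, limma adjusted p = 0.053). It was also lost without any one of the 4 epidermis libraries (adjusted p = 0.059 to 0.073) and without the filter on low values (adjusted p = 0.062), and the log2 fold change was 2.92 without wound dermis replicate 3 (adjusted p = 0.00027). Without dermis replicates 1 and 2 in turn it was 6.68 and 7.11, and with array weights 4.23.

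ENSRNOG00000009383 stood at 1925, 1695, 408 and 1387 TPM in wound epidermis and at 113, 307 and 0 TPM in wound dermis replicates 1 to 3. Epidermis replicate 3 was the lowest of its group and lay near the highest dermis library. The log2 fold change was 5.16 ± 1.82 (SE, limma adjusted p = 0.045), and it was 2.64 without wound dermis replicate 3 (adjusted p = 0.018), in which the gene is listed at 0. Without dermis replicates 1 and 2 in turn it was 6.06 and 6.77, and with array weights 3.99. It missed the threshold without any one of the 4 epidermis libraries (adjusted p = 0.054 to 0.097), without wound dermis replicate 1 (0.055), with a pseudocount of 0.1 (0.079), without the filter (0.078) and after rescaling without the 50 most abundant genes (0.052). Its fold change, like that of ENSRNOG00000009602, depended on which dermis libraries entered.

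ENSRNOG00000002382 stood at 956, 894 and 1081 TPM in wound dermis replicates 1 to 3 and at 0.87, 0, 0.15 and 0.28 TPM in wound epidermis replicates 1 to 4. The dermis libraries lay close together and far above every epidermis library. With 1 TPM added, the log2 fold change was -9.56 ± 0.22 (SE, limma adjusted p = 2.4e-06). Since the epidermis values lie below the added 1 TPM, its size depends on that choice, and with a pseudocount of 0.1 it was -11.62. ENSRNOG00000045683 stood at 603, 553 and 516 TPM in the dermis libraries and is listed at 0 in all 4 epidermis libraries, so no fold is given (limma adjusted p = 9.1e-08). Both genes are listed at 0 in all 5 inter-follicular libraries.

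**Figure D3:**
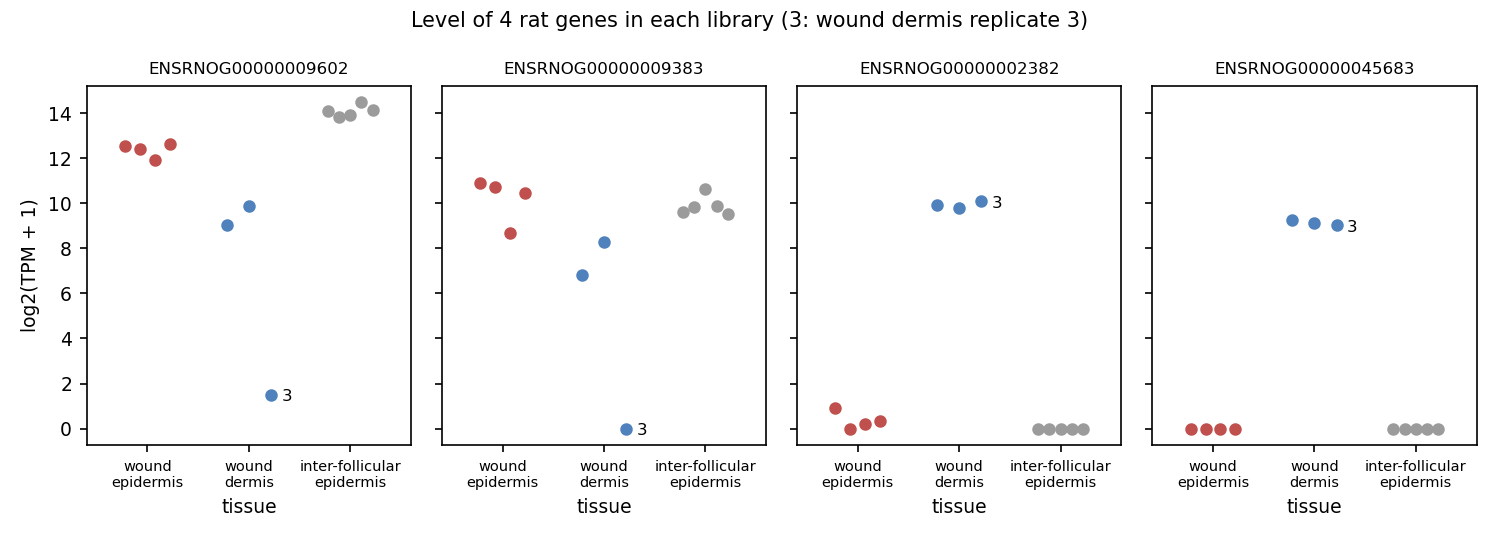
Level of the 2 leading genes of each direction in every rat library, as log2(TPM + 1), in wound epidermis (n = 4), wound dermis (n = 3, replicate 3 marked) and inter-follicular epidermis (n = 5). In the left pair of panels wound dermis replicate 3 lies far below replicates 1 and 2, at 1.82 and 0 TPM, and in the right pair the 3 dermis libraries lie together.

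Setting wound dermis replicate 3 alone against the 4 epidermis libraries, with the same 14604 genes and the spread taken from epidermis, called 2345 genes higher and 3535 lower (limma). The lone dermis library is assumed here to vary like the epidermis libraries. Of the 3068 genes higher with all libraries, 2223 were called higher in this fit (72.5%), which is 94.8% of its own 2345. Of the 4674 lower genes, 3424 were called lower (73.3%), or 96.9% of 3535. No gene called in both fits changed direction. The fits share 5 libraries, so this overlap is no independent support.

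Leaving out a dermis library with the filter applied anew lowered the count of lower genes most, from 4674 to 2970 without replicate 1, 2941 without replicate 2 and 2725 without replicate 3. All called genes numbered 5150 without replicate 3. With the 14604 genes held fixed, an alternative chosen after seeing the data, the lower genes numbered 4243, 4196 and 3961, so most of that loss lay in genes that no longer passed the filter. The higher genes numbered 2425 to 2613 with the filter applied anew and 2534 to 2726 with the genes held fixed.

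**Figure D4:**
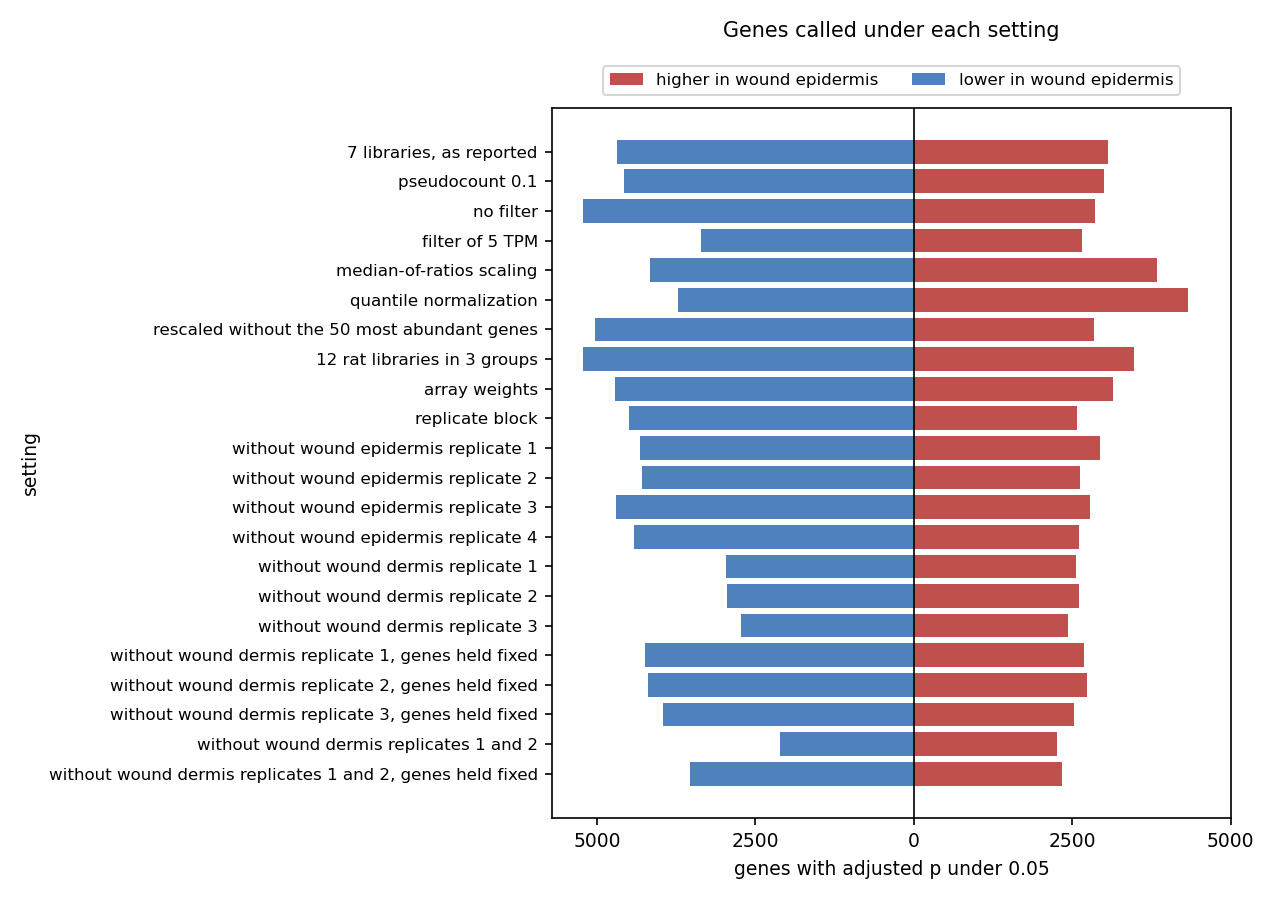
Number of genes with an adjusted p under 0.05 (limma) that were higher (bars to the right) or lower (bars to the left) in wound epidermis under each setting. The bars to the left shorten from 4674 to between 2725 and 2970 when a dermis library is left out and the filter applied anew, and quantile normalization is the setting with all 7 libraries in which higher genes outnumber lower ones.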

How the data were processed

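RNA was copied by SMART-seq2, a full-length cDNA method, from 10 ng or 100 ng of total RNA, and read as single ends of 86 or 43 bases, per the labels' protocols. The labels do not tie either to a library. The authors deposited TPM per gene and library. Per the submitters' processing notes the tools were Bowtie (1.0.0) and RSEM (1.2.31), on the build Rnor_6.0; their settings and the annotation are not given in the sources used. TPM keeps no read depth, so no counting interval is given. All 12 rat columns matched a labelled sample. The mouse table was not used here.

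From these values log2(TPM + 1) was fitted over the 7 wound libraries by limma (3.58.1, in R 4.3.3; mean-variance trend, no covariates) for genes with 1 TPM in at least 3 libraries. Adjusted p-values are Benjamini-Hochberg values over all genes tested, called under 0.05. The fit was tested on simulated data, with the same spread in both layers for each gene. This does not cover genes whose spread differed between the layers. The comparison, the groups of genes and the gene lists were chosen with earlier results of these data known. The lists were not run, because no identifier had a symbol in the tables used here (GENCODE mouse names and RefSeq rat genes of GRCr8). Named genes are, per direction, the 2 called genes of largest log2 fold change whose higher group averaged 10 TPM and whose groups did not overlap. The classes by difference and by presence, the counts without genes under 1 TPM in every library of one layer, and the limit of 5 TPM in wound dermis replicate 3, were chosen after seeing the data.

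Replicate numbers are shared by the labels. Deviations from the group means correlated across genes at 0.15, 0.22 and 0.21 in same-numbered pairs 1, 2 and 3. Each dermis library correlated best with its own number. The labels do not say whether a shared number means a shared animal or wound, and the source of these correlations was not tested. The main fit left the numbers out, and a fit with them as a block was run beside it. Alternatives were other pseudocounts, filters and scalings, all 12 rat libraries, array weights, the replicate block and left-out libraries.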

Additional observations from a re-analysis of the deposited data

Results flagged for a closer look

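Among 11 sets of 4 or 5 libraries checked for a library far from the others, 1 had such a library. ENSRNOG00000009383 stood at 1582 TPM in inter-follicular epidermis replicate 3 and at 776, 899, 942 and 745 TPM in replicates 1, 2, 4 and 5. Chance alone marks about 1 in 20 such sets.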

How the results depend on the processing

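The number of changed genes, 7742, lay within 1.5 times that value under every change of pseudocount, filter, scaling and weights, and with all 12 rat libraries in the fit. Leaving out 1 library at a time, with the filter rerun, it ranged from 5150 to 7479, and the lower genes from 2725 to 4704, against 4674. Without wound dermis replicates 1 and 2 and the filter applied anew, 4374 genes were called, 2107 of them lower, over 12826 genes, since a gene silent in epidermis can then no longer pass. With the replicate block 7055 genes were called, 2568 higher and 4487 lower; of the named genes it ended the call of ENSRNOG00000009602 alone. With a minimum of 30 TPM in inter-follicular epidermis, 3303 genes were chosen. Their median ratio to wound epidermis was 77.3%, 75.8% and 69.7% in wound dermis replicates 1 to 3, and the cause was not tested. These genes need not be particular to epidermis, and made up 62.9% of the transcripts in wound dermis replicate 3. The dermal genes among those named had no value when a dermis library was left out and the filter applied anew, and ENSRNOG00000009602 had none without the 50 most abundant genes, to which it belongs. The planned counts over gene lists were not run. No read depth is known, so differences near 1 TPM cannot be weighed against counting error.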
